A study of Homo sapiens with 9 samples.

Results

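Broad H3K4me3 peaks were the peaks of at least 3000 bp, end minus start, in the deposited H3K4me3 list of DND-41 cells. They numbered 833 of 12834 H3K4me3 peaks, 6.49% of the peaks and 16.7% of the bases in the list. DND-41 is a human cell line derived from a T-cell acute lymphoblastic leukemia, and its chromatin was profiled by CUT&RUN, in which an antibody directs a protein A/G-micrococcal nuclease fusion to its target and the released DNA is sequenced. For H3K27ac the cells had received ACBI-1 at 100 nM, which brings BRG1, BRM and PBRM1 of the SWI/SNF complexes to degradation, or DMSO. The H3K4me3, RUNX1 and BRG1 libraries carried no treatment label, and the duration of the treatment is not given in the sources used here. Each target and condition had 1 library of 1 cell line, which leaves every difference without replicates and without a p-value. The titles of both H3K27ac libraries carry the number 2, and no library with another number was analysed here. The control libraries (IgG or input) were not analysed here.

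H3K4me3 is placed by the SET1 and MLL methyltransferase complexes at the start sites of active genes, most often at CpG islands. Most marked promoters carry a short domain around the start site, and a minority carry a domain that runs on into the gene. In many cell types such long domains have been described over genes of cell identity and over tumor suppressor genes. H3K27ac, written by p300 and CBP, marks active promoters and enhancers. RUNX1 binds DNA together with its partner CBFB and is a main regulator of T-cell development. BRG1 (SMARCA4) is the ATPase that lets SWI/SNF complexes slide or evict nucleosomes.

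The 5 lists held 12834 H3K4me3, 19893 RUNX1 and 7445 BRG1 peaks, and 52967 H3K27ac peaks in ACBI against 90495 in DMSO. Only positions were deposited, so read depth and peak height are unknown, and a shallower library gives fewer and narrower peaks. The median H3K27ac peak was 754 bp wide in ACBI and 741 bp in DMSO. The part of depth in the differences between ACBI and DMSO was not tested. Intervals in brackets are exact 95% binomial intervals, of a share (Clopper-Pearson) or of a median (from ordered values), and cover only counting error over peaks. Positions are those of build hg19, counted from 1. No annotation or sequence of that build was used here, so the peaks are named by position only.

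The members were chosen by width, so their width is a description. It ranged from 3000 to 11476 bp with a median of 3569 bp (quartiles 3244 and 4186 bp). Of the 833, 267 reached 4000 bp, 82 reached 5000 bp, 18 reached 7000 bp and 1 reached 10000 bp. Width therefore fell off quickly, and the threshold cuts through a continuous range. The 3 members nearest to it measured 3000, 3000 and 3001 bp and held 2, 1 and 3 RUNX1 peaks. The 3 peaks just below it measured 2997, 2996 and 2996 bp and held 1, 0 and 1. The members were set beside the 5357 H3K4me3 peaks of 1000 to 2000 bp, which had a median width of 1475 bp and are called the narrower peaks.

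RUNX1 sat in most broad H3K4me3 peaks, and often more than once. At least 1 RUNX1 peak overlapped 682 of the 833 (81.9%, 79.1 to 84.4), against 62.6% (61.3 to 63.9) of the narrower peaks. Over all H3K4me3 peaks the share was 58.8%. At least 2 RUNX1 peaks lay in 276 broad peaks (33.1%, 29.9 to 36.4), against 6.93% (6.26 to 7.64) of the narrower ones and 8.42% of all H3K4me3 peaks. The commonest number was still 1, in 406 broad peaks, while 195 held 2, 65 held 3, 11 held 4 and 5 held more. The mean was 1.28 RUNX1 peaks per broad peak and 0.700 per narrower peak. Both medians were 1.

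BRG1 was found in 442 broad peaks (53.1%, 49.6 to 56.5), against 36.05% (34.8 to 37.3) of the narrower peaks. Its share over all H3K4me3 peaks was 34.5%. Exactly 1 BRG1 peak lay in 342 broad peaks and at least 2 in 100 (12.0%, 9.88 to 14.4). At least 2 lay in 1.03% (0.774 to 1.33) of the narrower peaks and in 2.05% of all H3K4me3 peaks. Most BRG1-bearing broad peaks also held RUNX1. Both factors were present in 402 broad peaks (48.3%, 44.8 to 51.7), RUNX1 alone in 280, BRG1 alone in 40 and neither in 111, which accounts for all 833. Both factors shared 29.6% (28.4 to 30.9) of the narrower peaks and 28.9% of all H3K4me3 peaks. In 392 of the broad peaks a RUNX1 peak and a BRG1 peak overlapped each other. This was the background, since the same held for 1567 of the 1587 narrower peaks with both factors and for 3645 of 3705 such peaks in the whole list.

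**Figure D1:**
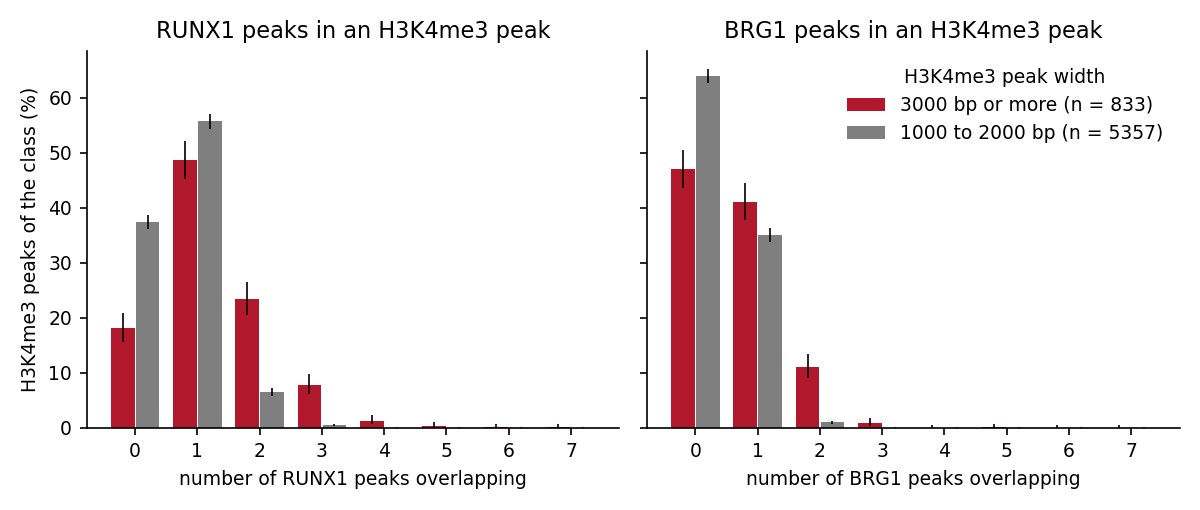
Share of H3K4me3 peaks (vertical axis, %) by the number of RUNX1 peaks (left) and BRG1 peaks (right) that overlap them, for the 833 broad and the 5357 narrower peaks, with exact 95% binomial intervals over peaks. Broad peaks without RUNX1 made up 18.1%, against 37.4% of narrower peaks, and broad peaks with 2 BRG1 peaks 11.04%, against 1.008%.

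A wider interval holds more factor peaks by its width alone, so the factors were also counted per length. Per kilobase, broad peaks held less of both. Overlapping RUNX1 peaks came to 0.328 per kb of broad peak and 0.470 per kb of narrower peak, and BRG1 peaks to 0.170 and 0.249 per kb. The share of bases under RUNX1 peaks averaged 18.1% in broad and 19.3% in narrower peaks, and the share under BRG1 peaks 6.73% and 7.18%. By cover rather than by number the classes were thus close, and the factor peaks themselves were wider in broad peaks. RUNX1 peaks with their midpoint in a broad peak had a median width of 448 bp (427 to 472, n = 1035), against 399 bp (389 to 410, n = 3475) in narrower peaks. BRG1 peaks had 332 bp (315 to 352, n = 540) and 280 bp (274 to 286, n = 1854).

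In a window of equal width, the central 1000 bp of each H3K4me3 peak, the order of the classes turned round. RUNX1 overlapped the window in 48.5% (45.1 to 52.0) of broad and 57.9% (56.6 to 59.2) of narrower peaks. For BRG1 the shares were 25.7% (22.8 to 28.8) and 31.1% (29.8 to 32.3). The central window takes in most of a narrower peak and a smaller share of a broad one, and the start site itself was not located.

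Inside broad peaks the factors were spread over the length. Each peak was folded at its centre and divided into 5 equal steps, from the end (step 1) to the centre (step 5), so that an even spread gives 20% a step. RUNX1 midpoints fell in steps 1 to 5 in 14.8%, 20.4%, 21.2%, 21.7% and 21.9% of cases (n = 1035). BRG1 midpoints gave 10.7%, 17.6%, 25.2%, 24.1% and 22.4% (n = 540). Both were rarest in the outermost step. RUNX1 was close to even in the inner ones, while BRG1 was fuller in step 3 (21.6 to 29.1) than in step 2 (14.5 to 21.1). In the narrower peaks steps 1 to 5 held 13.1%, 24.4%, 23.9%, 21.0% and 17.6% of RUNX1 midpoints, and 15.4%, 27.9%, 24.1%, 18.2% and 14.3% of BRG1 midpoints, so that step 2 was the fullest there. The median distance of a midpoint from the nearer end was 1022 bp for RUNX1 and 1059 bp for BRG1 in broad peaks, and 374 bp and 338 bp in narrower ones.

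Beyond the ends both factors were scarce. RUNX1 midpoints numbered 0.319 per kb inside broad peaks, 0.0540 per kb in the first 1 kb outside, 0.0336 in the second, 0.0208 from 2 to 5 kb and 0.0226 from 5 to 10 kb. BRG1 numbered 0.166 per kb inside and 0.0204, 0.00480, 0.00340 and 0.00828 per kb in the same outer windows, so that the last window held more BRG1 than the one before it. The drop at the ends was just as plain for the narrower peaks, with 0.435 RUNX1 midpoints per kb inside and 0.0545 in the first 1 kb outside.

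Pairing of the factors differed little between the classes. Of RUNX1 peaks in broad peaks, 42.9% (39.9 to 46.0) overlapped BRG1, against 42.3% (40.6 to 43.9) in narrower peaks. BRG1 peaks overlapped RUNX1 in 83.1% (79.7 to 86.2) and 79.8% (77.9 to 81.6) of cases.

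H3K27ac in DMSO covered nearly all of the broad H3K4me3. Every one of the 833 overlapped a DMSO H3K27ac peak: 0 of 833 lacked it, which allows a share of up to 0.360% by the limit of 3 counts. Of the narrower peaks 97.5% (97.0 to 97.9) overlapped one. The median cover of a broad peak was 95.2% (93.6 to 96.9) of its bases, with quartiles of 80.2% and 100%. In the narrower peaks the median was 88.5% (87.7 to 89.3), over all H3K4me3 peaks 91.6%, and in those under 1000 bp 99.5%. Full cover was present at 319 broad peaks (38.3%, 35.0 to 41.7), near the background of 36.5% of all H3K4me3 peaks. Where a broad peak was not fully covered, the gap lay mostly at its ends: 78.2% of the uncovered bases were there, and 21.8% lay between 2 H3K27ac peaks.

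DMSO H3K27ac also ran on past the H3K4me3 ends, much further for some broad peaks than for others. The flank, the length by which overlapping H3K27ac peaks reached beyond both ends together, had a median of 682 bp (529 to 830) and quartiles of 49 and 3066 bp, against a median of 250 bp (230 to 274) at the narrower peaks. H3K27ac reached past both ends of 349 broad peaks (41.9%), past 1 end of 300 (36.01%) and past neither end of 184 (22.1%). Over all H3K4me3 peaks the shares were 36.8% past both ends, 35.95% past 1 end and 27.3% past neither. The share past 1 end was thus at the background. A flank of 5 kb or more was present at 150 broad peaks (18.0%, 15.5 to 20.8), at 4.82% (4.26 to 5.42) of narrower ones and at 9.14% of all H3K4me3 peaks. A DMSO H3K27ac peak of 10 kb or more overlapped 132 broad peaks (15.8%, 13.4 to 18.5), 2.18% (1.81 to 2.61) of narrower peaks and 5.002% of all. Long flanks were not limited to wide H3K4me3: the median flank of H3K4me3 peaks under 1000 bp was 784 bp. The flank depended on how H3K27ac was joined, and its median was 1262 bp when H3K27ac peaks within 1000 bp of each other were merged.

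The 5 longest flanks were of a different order. The first flank, of 95210 bp with 73838 bp on the left, belonged to a member of 3161 bp on chromosome 2 (240217178 to 240220338). The second, on chromosome 17 (75446395 to 75451707), was 93066 bp, and the third, on chromosome 14 (100531419 to 100536116), was 83489 bp with 78751 bp on the right. All 3 held 3 or 4 RUNX1 peaks. The others were on chromosome 2 (128377364 to 128383222, 45060 bp, with neither factor) and on chromosome 20 (30304684 to 30311868, 44882 bp). In ACBI the flank was shorter at 4 of these 5 and longer at the one on chromosome 14, at 91431 bp in ACBI against 83489 bp in DMSO.

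After ACBI-1, broad H3K4me3 peaks kept H3K27ac but with less of their length covered. At least 1 ACBI peak overlapped 821 of the 833 (98.6%, 97.5 to 99.3), against 84.8% (83.8 to 85.8) of the narrower peaks and 78.5% of all H3K4me3 peaks. Median cover of the broad peaks was 83.05% (79.3 to 85.9) in ACBI and 95.2% in DMSO, and that of the narrower peaks was 66.1% (64.7 to 67.2) in ACBI and 88.5% in DMSO. Cover was lower in ACBI than in DMSO at 544 broad peaks (65.3%, 62.0 to 68.5), equal at 163 and higher at 126 (15.1%, 12.8 to 17.7). These shares lay near the background: over all H3K4me3 peaks cover was lower in 63.8% and higher in 12.4%. Of the 163 with equal cover, 162 were fully covered in both lists.

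As a share of peak length, the fall was smaller at broad peaks. The change per peak, ACBI minus DMSO, had a median of -7.28 points of cover (-9.09 to -5.06) at broad and -15.1 points (-16.1 to -14.0) at narrower peaks. Over all H3K4me3 peaks the median was -10.1 points (-10.9 to -9.43). In bases per peak the order of the classes turned round. Bases without H3K27ac rose from 369984 in DMSO to 774667 in ACBI over the 833 broad peaks. Over the 5357 narrower peaks they rose from 1499604 to 3208005, which is fewer bases per peak. ACBI cover was 50% or less of DMSO cover at 81 broad peaks (9.72%, 7.80 to 11.9), against 26.0% (24.8 to 27.2) of the narrower peaks that had DMSO H3K27ac. The background over all H3K4me3 peaks with DMSO H3K27ac was 26.7%. A long interval can lose bases at its ends and still be mostly covered, so the central 1000 bp was compared as well. There ACBI covered a mean of 85.9% of the bases at broad peaks, against 95.6% in DMSO, and 66.7% at narrower peaks, against 87.4% in DMSO. The window had no ACBI H3K27ac in 4.44% (3.15 to 6.07) of broad and 15.7% (14.7 to 16.7) of narrower peaks, against 0.720% (0.265 to 1.56) and 2.73% (2.31 to 3.20) in DMSO. At narrower peaks the window takes in most of the peak, with bases near its ends. It therefore cannot remove loss at the ends from the comparison of the classes.

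By position, ACBI cover of the broad peaks in steps 1 to 5 from the end was 56.8%, 72.9%, 80.3%, 84.2% and 86.4%. DMSO cover in the same steps was 74.2%, 86.8%, 91.7%, 94.6% and 95.7%. The gap between the lists was widest at the ends, and 76.8% of the bases without ACBI H3K27ac were end bases. H3K27ac was present but stopped short of both ends at 40.7% of broad peaks in ACBI and 21.8% in DMSO. At narrower peaks these shares were 38.6% and 25.4%. Peaks with no H3K27ac at all are bare at both ends too but are not counted as such here. Some ACBI H3K27ac was present at 98.6% of broad and 84.8% of narrower peaks, so these shares do not rank the classes. Several ACBI peaks overlapped 130 members (15.6%) and several DMSO peaks 82 (9.84%), against 2.52% in ACBI and 1.32% in DMSO over all H3K4me3 peaks, where the ratio of ACBI to DMSO was at least as large.

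**Figure D2:**
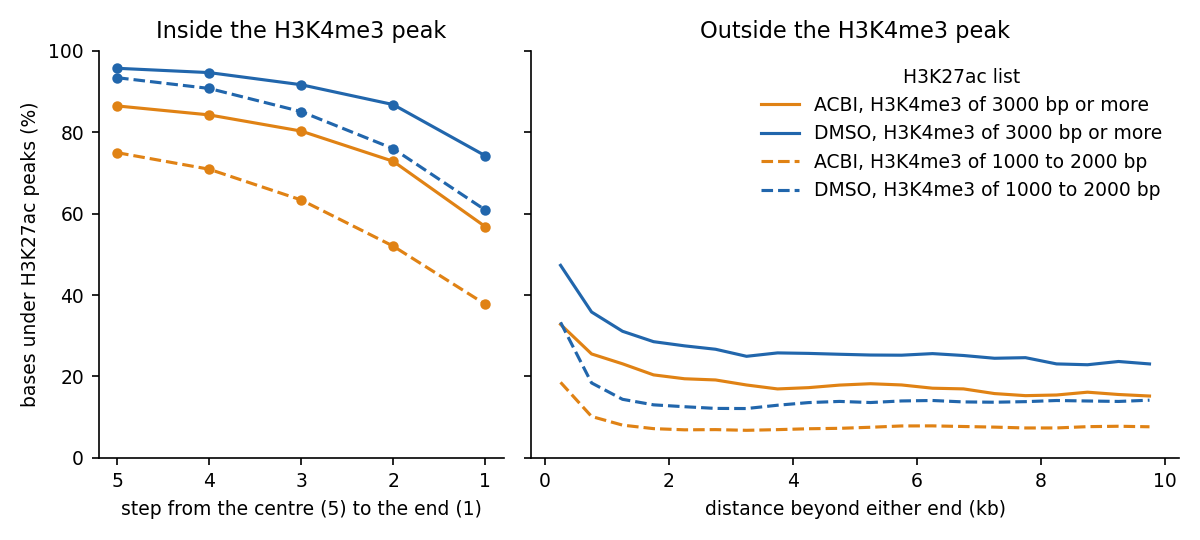
Bases under H3K27ac peaks (vertical axis, %) inside the H3K4me3 peak, in 5 steps from centre to end (left), and in 500 bp windows up to 10 kb beyond either end (right), for ACBI and DMSO. ACBI lies below DMSO throughout in both width classes, and in the outermost step of the broad peaks cover is 56.8% in ACBI and 74.2% in DMSO.

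The flanks shrank with the same direction. Median flank at broad peaks was 107 bp (57 to 209) in ACBI, against 682 bp in DMSO, and with H3K27ac peaks within 1000 bp merged it was 233 bp in ACBI, against 1262 bp in DMSO. Among the 649 broad peaks with a DMSO flank, ACBI left 50% or less of it at 375 (57.8%, 53.9 to 61.6), against 66.1% (64.6 to 67.6) of narrower peaks with a flank and a background of 62.1%. The share of broad peaks with such a loss of flank was thus a little below the background, which lay above its interval. In bp the median change of flank, ACBI minus DMSO, was larger at broad peaks, at -173 bp (-256 to -122). At narrower peaks it was -84 bp (-97 to -66). In fixed windows, H3K27ac covered 29.2% of the first 1 kb beyond the ends of broad peaks in ACBI and 41.6% in DMSO, and 16.4% in ACBI and 24.3% in DMSO from 5 to 10 kb out. The ratio of ACBI to DMSO cover was 0.859 inside broad peaks, 0.701 in the first 1 kb outside and 0.673 from 5 to 10 kb. At narrower peaks it was 0.736 inside, 0.555 and 0.548.

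H3K27ac cover and flanks were higher in the wider members of the broad class. Among members of 3000 to under 3500 bp, 3500 to under 4000 bp, 4000 to under 5000 bp and 5000 bp or more, the median ACBI cover was 78.4%, 82.4%, 86.3% and 97.6%, against 92.8%, 94.4%, 97.0% and 100% in DMSO. Median DMSO flanks in the same order were 380, 520, 1051 and 4634 bp. Members whose ACBI cover was 50% or less of DMSO cover made up 12.5%, 11.05%, 5.95% and 2.44%. RUNX1 changed little in share, at 80.5%, 81.8%, 84.3% and 82.9%, and BRG1 likewise, at 55.3%, 53.0%, 48.6% and 52.4%. The widest members thus differed from the rest of the class in H3K27ac more than in the share that held a factor. Their RUNX1 number per kb was 0.268, against 0.360 at 3000 to under 3500 bp.

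**Figure D3:**
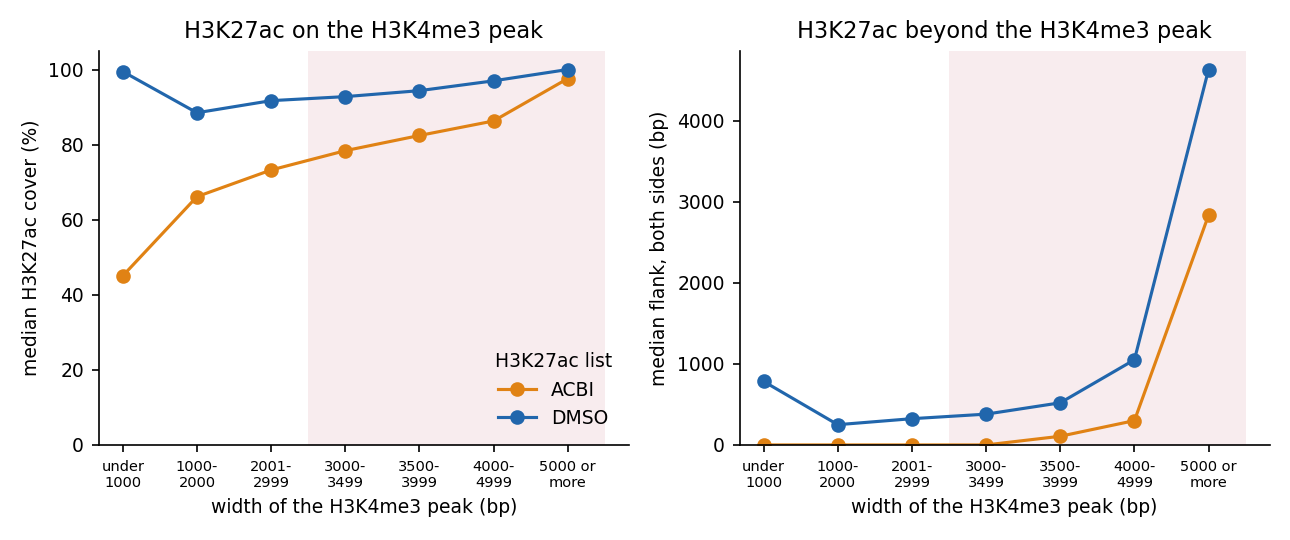
Median H3K27ac cover of the H3K4me3 peak (left, %) and median H3K27ac flank summed over both sides (right, bp) by H3K4me3 width, for ACBI and DMSO, with the broad classes shaded. From 1000 bp on, both rise with width up to 97.6% and 2836 bp in ACBI and 100% and 4634 bp in DMSO at 5000 bp or more, except that the median ACBI flank stays at 0 bp below 3500 bp.

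H3K4me3 peaks of both width classes were mostly fully covered in ACBI where a large DMSO H3K27ac domain overlapped them. Of the 132 overlapped by a DMSO H3K27ac peak of 10 kb or more, 71.2% were fully covered in ACBI and 1 (0.758%, 0.0192 to 4.15) had ACBI cover of 50% or less of DMSO cover. Of the other 701, 14.7% were fully covered in ACBI and 80 (11.4%, 9.15 to 14.0) fell to 50% or less. The 132 had a median width of 4296 bp and the 701 of 3487 bp. They differed in DMSO too, with a median cover of 100% at the 132 and 91.4% (89.6 to 93.3) at the 701. Narrower peaks had a median DMSO cover of 100% in such domains and 87.9% (87.0 to 88.6) outside them. Among narrower peaks, full ACBI cover was present in 68.4% in such domains and in 12.2% outside them, close to the broad peaks, and ACBI cover of 50% or less of DMSO cover in 10.3% (5.41 to 17.2) and 26.4% (25.2 to 27.6).

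Broad peaks with BRG1 had less ACBI H3K27ac than those without it, a split chosen after the values were seen. Median ACBI cover was 78.3% (75.1 to 82.0) at the 442 with BRG1 and 88.7% (84.6 to 92.3) at the 391 without. They differed in DMSO too, at 93.3% (90.6 to 95.8) with BRG1 and 97.6% (95.0 to 99.3) without, and in flank, at 452 and 1051 bp. ACBI cover was 50% or less of DMSO cover at 57 members with BRG1 (12.9%, 9.92 to 16.4) and at 24 without (6.14%, 3.97 to 8.996). Because DMSO cover moved with the result, ACBI cover was compared within bands of it. Among members fully covered in DMSO, median ACBI cover was 96.5% with BRG1 (n = 149) and 100% without (n = 170). At 80% to under 100% it was 78.0% (71.9 to 81.1, n = 174) with BRG1 and 82.98% (76.7 to 87.03, n = 136) without, and under 80% it was 48.9% (40.4 to 54.2, n = 119) and 54.3% (49.0 to 60.1, n = 85). The direction was the same in each band, and the intervals overlapped in the bands below full cover. The same split in the narrower peaks gave 61.4% (58.6 to 63.9) with BRG1 and 68.6% (66.7 to 70.2) without, so narrower peaks showed the same order.

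By factor class the lowest ACBI cover among broad peaks was at the 402 with both factors, with a median of 78.2% (74.0 to 81.9). It was 85.2% (71.5 to 95.1) with BRG1 alone, 88.7% (83.2 to 93.1) with RUNX1 alone and 88.7% (77.7 to 93.3) with neither. The classes differed in DMSO too, with medians of 92.7%, 95.8%, 97.5% and 97.7% in the same order. The median change per peak was -11.5, -2.99, -2.53 and -4.98 points. RUNX1 without BRG1 thus lay level with neither factor. A larger number of RUNX1 peaks did not go with lower ACBI cover: the median was 77.6% with 1 RUNX1 peak, 87.4% with 2 and 87.0% with 3 or more. The last of these were wider, at a median of 4083 bp. DMSO cover also rose with the number, at 92.2%, 97.3% and 100%. The median change per peak was -9.64, -5.37 and -7.26 points. Members with 1 BRG1 peak had 78.2% and those with 2 or more 81.1% (74.7 to 89.7, n = 100). Their intervals overlapped.

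**Figure D4:**
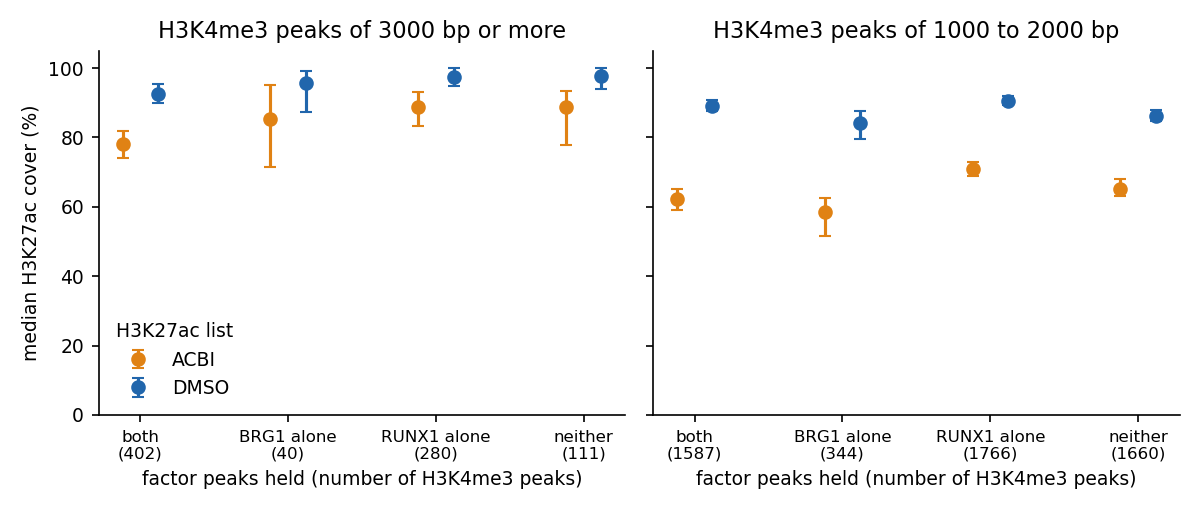
Median H3K27ac cover (vertical axis, %) of H3K4me3 peaks that hold both factors, BRG1 alone, RUNX1 alone or neither, for ACBI and DMSO, with exact 95% binomial intervals of the median. Among broad peaks (left) those with both factors have the lowest ACBI median, 78.2%, and among narrower peaks (right) those with BRG1 alone have, at 58.6%. These 2 groups also have the lowest DMSO medians of their width class, 92.7% and 84.1%. In each width class the ACBI intervals of BRG1 alone and of both factors overlap.

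Factor peaks in broad H3K4me3 overlapped ACBI H3K27ac more often than those in narrower peaks, with smaller differences in DMSO. Of RUNX1 peaks in broad peaks, 91.0% (89.1 to 92.7) overlapped H3K27ac in ACBI and 98.7% (97.9 to 99.3) in DMSO. In narrower peaks it was 81.2% (79.9 to 82.5) in ACBI and 97.6% (97.0 to 98.0) in DMSO. BRG1 peaks gave 85.0% (81.7 to 87.9) in ACBI and 98.3% (96.9 to 99.2) in DMSO within broad peaks, and 71.8% (69.7 to 73.9) and 96.6% (95.7 to 97.4) within narrower ones. RUNX1 peaks that overlapped BRG1 in broad peaks overlapped ACBI H3K27ac in 89.0% of cases (85.7 to 91.7), and those without BRG1 in 92.6% (90.1 to 94.5), with overlapping intervals. In narrower peaks these were 76.5% (74.3 to 78.7) with BRG1 and 84.6% (82.99 to 86.2) without, with intervals apart.

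The widest members show how these features combine. The 10 widest measured 7802 to 11476 bp. Of these, 9 held RUNX1, 6 held BRG1, 9 were fully covered in DMSO and 4 fully covered in ACBI. Over all broad peaks the shares were 81.9%, 53.1%, 38.3% and 23.6% in the same order. The first, on chromosome 17 (56406262 to 56417737), was 11476 bp long and held 7 RUNX1 peaks, the most of any member, which covered 44.9% of it. The widest of the 7 was 1973 bp, and the single BRG1 peak, of 150 bp, lay inside another. ACBI H3K27ac covered 84.8% of the member, with the gap at its left end, and DMSO covered all of it.

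The second, on chromosome 3 (50642496 to 50651846), held 1 RUNX1 and 1 BRG1 peak, which overlapped. ACBI covered 95.9% with a flank of 6631 bp, and DMSO 100% with a flank of 36544 bp, and nearly all of the difference lay on its left. The third, on chromosome 4 (109081879 to 109091024), held 5 RUNX1 peaks and 1 BRG1 peak. Its H3K27ac was a single DMSO peak of 16801 bp, and in ACBI it was 2 peaks of 6270 and 13072 bp. Its flank was longer in ACBI, at 11174 bp, than in DMSO, at 7655 bp.

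The fourth, on chromosome 11 (118209376 to 118218013), held 2 RUNX1 peaks and no BRG1, and the fifth, on chromosome 2 (43446678 to 43455253), held 6 and 1. The sixth, on chromosome 3 (35679792 to 35688088), held a single RUNX1 peak of 175 bp. All 3 were fully covered in both lists with longer flanks in ACBI, by the most at the sixth, at 45190 bp in ACBI against 25499 bp in DMSO. At 6 of the 10 widest the flank was longer in ACBI than in DMSO, while over all broad peaks it was longer at 158 (19.0%) and shorter at 527 (63.3%). Over all H3K4me3 peaks it was longer at 14.9% and shorter at 61.2%. The seventh, on chromosome 5 (40679570 to 40687771), held 4 RUNX1 peaks and kept 90.4% cover in ACBI. The eighth, on chromosome 10 (89621439 to 89629414), had the lowest cover of the 10, at 63.0% in ACBI and 86.4% in DMSO. The ninth, on chromosome 7 (92459241 to 92467181), held neither factor and was covered to 99.9% in ACBI and 100% in DMSO. The tenth, on chromosome 13 (87409867 to 87417668), held 3 RUNX1 peaks and was fully covered in both.

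**Figure D5:**
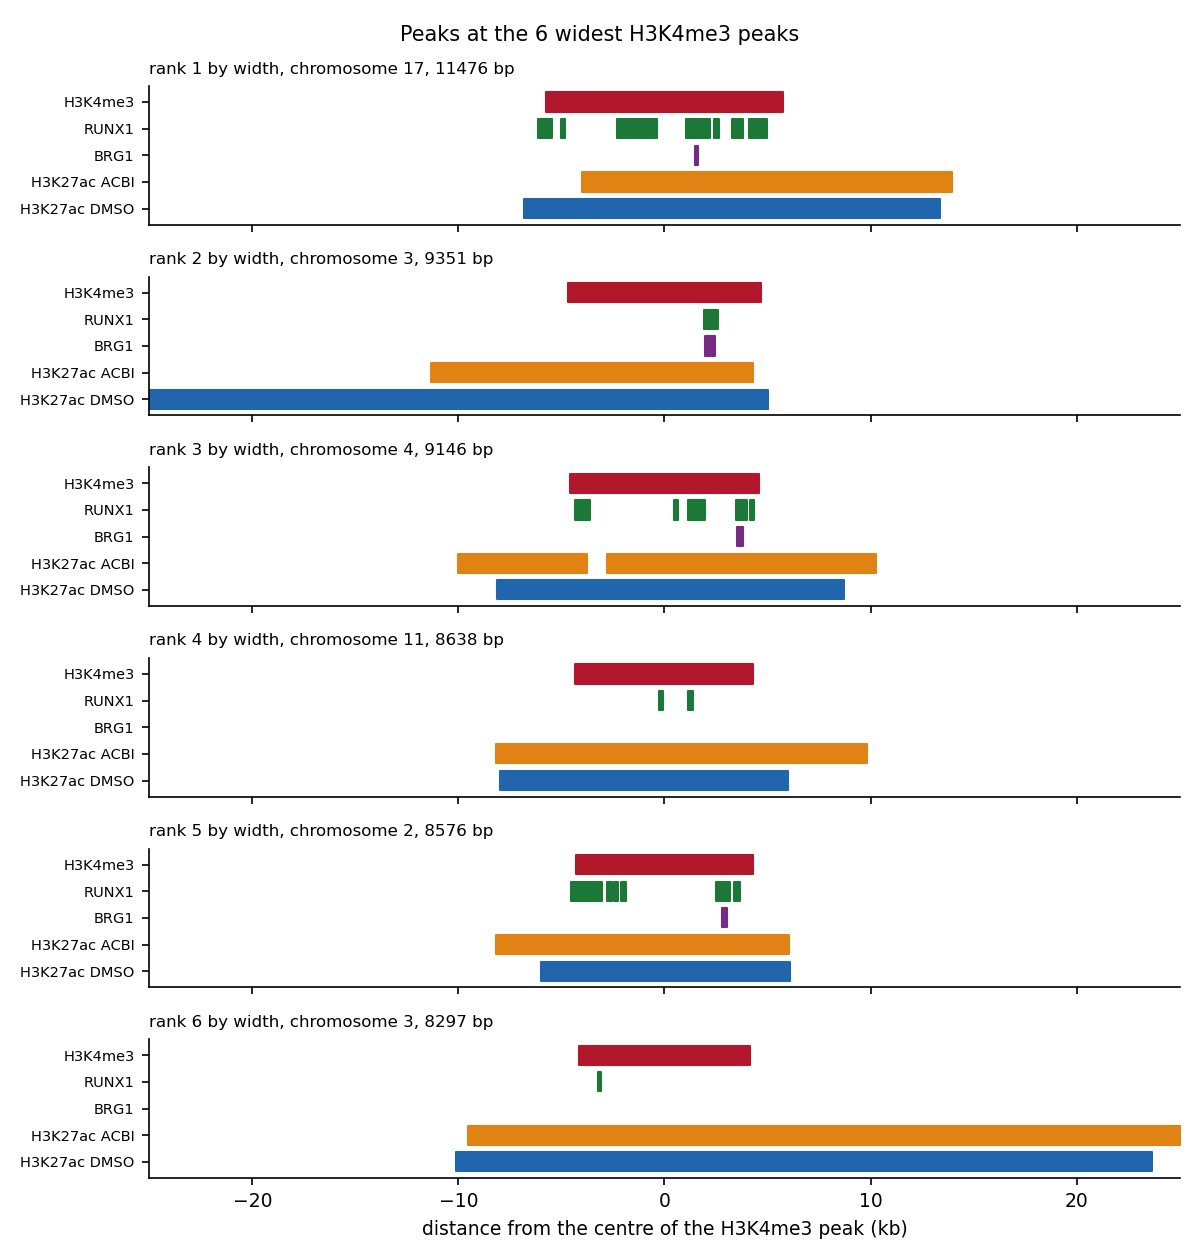
H3K4me3, RUNX1, BRG1 and H3K27ac (ACBI and DMSO) peaks at the 6 widest H3K4me3 peaks, drawn to scale by distance from the centre of each (horizontal axis, kb) and cut at 25 kb. RUNX1 peaks number 7, 1, 5, 2, 6 and 1 from top to bottom, each BRG1 peak overlaps a RUNX1 peak, and H3K27ac reaches beyond the H3K4me3 peak at 1 end or both.

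The remaining members among the 5 with the most RUNX1 peaks were at 41904090 to 41910441 on chromosome 6 and at 3864913 to 3868841 on chromosome 17. Each held 5 RUNX1 peaks and no BRG1, and both were fully covered in ACBI and in DMSO. The member on chromosome 17 was only 3929 bp wide, and RUNX1 covered 51.8% of it. The largest number of BRG1 peaks was 5, in a member of 6135 bp on chromosome 2 (232570743 to 232576877) without any RUNX1 peak, which is named here because of that value. Its cover was 46.6% in ACBI, in 2 separate peaks, and 86.0% in DMSO.

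A few wide peaks held neither factor. The 5 widest of the 111 measured 5859 to 7941 bp, and 2 of them were fully covered in both lists. The peak on chromosome 1 (158458374 to 158464900) was covered to 100% in ACBI and 85.4% in DMSO. The lowest cover was on chromosome 11 (65266445 to 65272729), where 6285 bp of H3K4me3 were covered to 5.998% in ACBI and 39.3% in DMSO.

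The 12 broad peaks with no ACBI H3K27ac (1.44%, 0.747 to 2.503) were set against a background of 16.0% of H3K4me3 peaks with DMSO H3K27ac. All 12 held RUNX1, as did 81.9% of the class. BRG1 was held by 7 of the 12, near its share of 53.1% in the class. They measured 3051 to 4175 bp, 3 of them above the median width of the class, and their DMSO cover ranged from 8.59% to 93.4% with a median of 61.4%. The largest fall was on chromosome 21 (47741530 to 47745704), with 0% in ACBI and 93.4% in DMSO at 1 RUNX1 and 2 BRG1 peaks. Next came chromosome 1 (173835149 to 173838343) with 6.45% in ACBI and 92.4% in DMSO, and chromosome 6 (32939898 to 32943038) with 0% in ACBI and 83.6% in DMSO. On chromosome 1 (25253558 to 25257103) a member with 2 RUNX1 peaks had 0% in ACBI and 80.5% in DMSO. On chromosome X (153597095 to 153600278) cover was 23.1% in ACBI and 99.1% in DMSO.

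Rises were fewer and smaller. Cover was higher in ACBI by 20 points or more at 19 broad peaks (2.28%, 1.38 to 3.54) and lower by as much at 259 (31.1%, 28.0 to 34.4). Over all H3K4me3 peaks the shares were 2.66% and 39.2%, so the share of rises was at the background. The largest rise, chosen by its value, was on chromosome 14 (22919096 to 22922630), with 96.9% in ACBI, under a single peak of 17469 bp, and 57.3% in DMSO, under 3 peaks of up to 1294 bp. It held neither factor.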

How the data were processed

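The analysis used the CUT&RUN peak lists of 5 DND-41 libraries, 1 for each target and treatment named in the titles. What the authors deposited are positions in 4 columns (chromosome, start, end, name), with neither scores nor read counts. Per the submitters' processing notes the build is hg19, and MACS2 and SEACR are among the tools. MACS2 made the RUNX1 peaks, and the H3K27ac peaks of both treatments are broad calls with q below 0.01, per the file headers. The sources used here do not give other thresholds, the aligner, the use of controls or any pooling. Lists of different targets came from different settings, so their sizes are not compared.

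Overlaps of at least 1 bp, cover and flanks were computed in Python 3.11.15 (numpy 2.4.6, pandas 2.3.3, scipy 1.17.1, matplotlib 3.10.9). Overlap counts, cover and the left side of flanks were tested on simulated lists. Overlap counts and cover were also compared with bedtools 2.31.1, with 0 of 12834 H3K4me3 peaks differing. Flanks were not compared with bedtools. Cover is the percent of an H3K4me3 peak's bases under H3K27ac peaks. No test was made.

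The members, measures and site rules were chosen with earlier results of these data known, and the splits by factor, DMSO cover and domain size after the values were seen. Named sites were the 10 widest members, 3 on each side of the threshold, and the 5 with most RUNX1, longest DMSO flank, largest fall in cover (of those with DMSO cover of 50% or more) or greatest width with neither factor. Gene lists were not counted, since no annotation of hg19 was used here.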

Additional observations from a re-analysis of the deposited data

How the results depend on the processing

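Other settings gave 30 values, of which 22 lay inside the 95% interval of the main value and 8 outside. Some of the 22 could move little or not at all, so this count overstates how stable the results are. The median number of RUNX1 peaks was 1 in every setting, with an interval of 1 to 1. With H3K4me3 peaks of at least 4000 bp, the median ACBI cover was 90.4%, the median ACBI flank 682 bp, the median DMSO flank 2138 bp, and the share with ACBI cover of 50% or less of DMSO cover 4.87%. With H3K4me3 peaks within 1000 bp of each other merged, which gave 1133 peaks of 3000 bp or more, the median ACBI cover was 77.4% and that share 12.5%. With H3K27ac peaks within 1000 bp merged, the median flanks were 233 bp in ACBI and 1262 bp in DMSO. Counting factor peaks by midpoint, taking H3K27ac peaks of at least 500 bp, or taking only as many of the widest DMSO peaks as the ACBI list holds moved no value out of its interval. The last of these left the ACBI list unchanged, so ACBI cover and flank were fixed in advance. It kept DMSO peaks down to 601 bp, while the widest DMSO peak at a broad peak had a median width of 4082 bp. No paired analysis was possible because each target and condition had 1 library. Depth and peak height are unknown, so whether less cover in ACBI means less of the mark or fewer reads cannot be told apart.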

Other observations

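Broad H3K4me3 peaks were unevenly spread over the chromosomes. Chromosome 4 had the highest share, with 51 of its 434 H3K4me3 peaks broad (11.8%, 8.88 to 15.2), followed by chromosome 5 with 56 of 525 (10.7%, 8.16 to 13.6). Chromosome 19 had 23 of 1014 (2.27%, 1.44 to 3.38) and chromosome 15 had 11 of 417 (2.64%, 1.32 to 4.67). The copy number of these chromosomes in the line was not examined.

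A neighbouring H3K4me3 peak was about as common beside broad peaks as over the whole list. The nearest one lay within 1 kb at 208 members (24.97%, 22.1 to 28.1), against 14.8% (13.8 to 15.8) of the peaks of 1000 to 2000 bp and 26.8% (26.1 to 27.6) of all H3K4me3 peaks. The median distance to it was 27879 bp over all members. Only 3 DMSO H3K27ac peaks overlapped more than 1 broad H3K4me3 peak.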
